A study of Mus musculus with 26 samples.

Results

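Immunoglobulin transcripts were read in subcutaneous white fat from the inguinal depot of male C57BL6/J mice, on arrays of 60-base DNA probes, with 1 array per mouse. Probes were chosen by name: those whose gene name begins as that of an immunoglobulin heavy, kappa, lambda or joining chain gene does, and those whose description names an immunoglobulin chain. These were 244 of the 56605 probes on the array, for 214 of 37074 gene or transcript names. Of them, 15 were chosen by gene name and 229 by description only.

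ChREBP (gene Mlxipl) is a transcription factor that responds to carbohydrate supply and is made as a long and a shorter isoform, ChREBPα and ChREBPβ. Total ChREBP KO mice lack both isoforms in the whole body (n = 7), and their WT littermates form the WT group of the total line (n = 7). ChREBPβ KO mice lack exon 1b, which CRISPR/Cas9 removed in every tissue, so that the shorter isoform is lost (n = 5), and their WT littermates form the WT group of the ChREBPβ line (n = 7). In every group the mice went without food for 24 h before an 18 h refeeding period, in which their water held 20% glucose. The age of the mice is not given in the sources used here.

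Naive B cells carry IgM and IgD at their surface, with heavy chains from Ighm and Ighd. After activation, class switching replaces these constant regions with those of IgG, IgA or IgE, and plasma cells secrete the antibody. The joining chain, made by antibody-secreting cells, links IgM and IgA into polymers. Every antibody also has a light chain, kappa or lambda, and each chain takes its antigen-binding end from 1 of many variable genes.

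The probes the results turn on are shown here as read from the array's annotation, 5′ to 3′ along the transcript, with their mm9 positions. For IgD (Ighd, A_51_P266248, minus strand, chr12:114654277-114654336), for IgM (Ighm, A_51_P485421, minus strand, chr12:114659630-114659689), for the switched class IgG3 (Ighg3, A_55_P2118876, minus strand, chr12:114597942-114598001) and for the switched class IgG2b (Ighg2b, A_55_P2063283, minus strand, chr12:114544738-114544797) the probes are annotated to the constant regions of these classes. Whether transcripts of related classes also bind them was not tested. The exon each lies in was not annotated here.
Ighd: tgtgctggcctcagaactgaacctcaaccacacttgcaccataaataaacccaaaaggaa
Ighm: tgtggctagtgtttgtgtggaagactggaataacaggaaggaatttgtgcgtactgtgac
Ighg3: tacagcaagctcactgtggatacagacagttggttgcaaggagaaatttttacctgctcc
Ighg2b: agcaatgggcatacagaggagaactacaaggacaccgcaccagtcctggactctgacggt

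The variable gene probes are shown because they moved in opposite directions between the WT groups. Igkv14-126 had A_66_P122898 (plus strand, chr6:67846583-67846642) and A_55_P2167347 (plus strand, chr6:67846563-67846622), which share a run of 40 bases. Ighv11-2 had A_66_P127412 (minus strand, chr12:115286517-115286576). Igkv3-10 had A_55_P1978033 (plus strand, chr6:70523164-70523223) and Ighv1-7 had A_51_P288295 (minus strand, chr12:115776734-115776793). Capitals mark the codons for Tyr-Tyr-Cys that end the conserved framework before the third complementarity-determining region of a kappa chain. In all, 40 kappa variable probes held such a run, with Tyr or Phe as its middle residue.
Igkv14-126, A_66_P122898: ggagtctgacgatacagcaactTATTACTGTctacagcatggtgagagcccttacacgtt
Igkv14-126, A_55_P2167347: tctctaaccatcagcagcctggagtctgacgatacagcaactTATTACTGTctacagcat
Igkv3-10: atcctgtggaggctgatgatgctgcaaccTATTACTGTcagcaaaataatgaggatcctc
Ighv11-2: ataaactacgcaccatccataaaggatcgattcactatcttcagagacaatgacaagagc
Ighv1-7: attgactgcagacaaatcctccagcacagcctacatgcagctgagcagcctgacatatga

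Variable genes resemble each other. A run of at least 20 bases was shared with a probe of another variable gene by 56 of 103 heavy variable probes (54.4%) and by 43 of 106 kappa variable probes (40.6%). The transcripts of related genes may therefore bind 1 another's probes, and neither their values nor their counts are independent.

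The arrays held 62976 spots each, 70.2% to 76.5% of the spots other than controls were well above background, and none was saturated. Values are log2 fluorescence intensity after quantile normalization, so a difference of 1 is a doubling. The Mlxipl probe fell by 2.21 in total ChREBP KO and by 1.54 in ChREBPβ KO, with no overlap between KO and WT arrays in either line. Adipocyte markers were bright on every array, with a mean over 5 genes between 14.80 and 15.97.

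Of the 244 probes, 83 were well above background on 21 or more of 26 arrays. A further 67 passed the filter only because they were well above background on 75% of the arrays of at least 1 group, and 94 did not pass and were not tested. The probes of Ighg1, Ighe and Igll1, the last a part of the surrogate light chain of B cell precursors, did not pass. The 150 tested probes were 12 of 15 for heavy constant regions, 5 of 5 for light constant regions, the 1 joining chain probe, 53 of 103 for heavy variable, 72 of 106 for kappa variable and 3 of 3 for lambda variable genes. The rest were 3 of 8 probes for other heavy chain transcripts and 1 of 2 for Iglon5, a cell adhesion gene of the nervous system whose name only begins like that of a lambda chain.

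In total ChREBP KO tissue, transcripts of IgD, IgG2b, IgG2c, both kinds of light chain and most variable genes were lower than in WT littermates, and those of IgM were higher at the brightest IgM probe. Among the 83 probes well above background on 21 arrays, 69 fell and 2 rose at an adjusted p under 0.05 (limma, Benjamini-Hochberg over all probes tested). Of all probes that passed the same rule, 19.1% fell and 27.8% rose. Over the 150 tested, 118 fell and 2 rose, where 19.3% of all probes tested fell and 26.3% rose. The 67 probes that passed through the share of at least 1 group could only enter where such a group was bright. Without any filter on dim probes, 164 of the 244 fell and 1 rose, where 14.2% of all probes fell and 17.8% rose. The median log2 difference was -1.21 over the immunoglobulin probes and 0.05 over all probes tested.

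Ighd, the constant region of IgD, was at 12.17, 14.11 and 14.61 (lowest, median and highest) in WT of the total line and at 8.43, 11.36 and 13.08 in total ChREBP KO (A_55_P2734227). Its level fell by 2.70 (SE 0.57, limma adjusted p = 0.000389), a 6.51-fold difference. The groups overlapped: total KO replicates 2, 3 and 8 lay above the lowest WT array. The probe printed above, A_51_P266248, fell by 2.64 (SE 0.53, adjusted p = 0.000246).

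The 3 IgM probes did not move together. They lie along the minus strand of chromosome 12: A_51_P485421 first, A_55_P2745508 with its start 648 bases further downstream, and A_55_P2745692 a further 2212 bases downstream. These are distances on the genome, not along the spliced transcript. In the Ighm gene, the exons of the membrane form lie downstream of those that end the secreted form. The middle probe was at 13.96, 14.72 and 15.38 in WT and at 15.40, 16.22 and 16.55 in total KO. Every KO array was above every WT array, with a log2 difference of 1.50 (SE 0.19, limma adjusted p = 7.82e-07), and 9.79% of all probes tested were separated in this direction. The first probe was at 10.97, 12.37 and 12.56 in WT and at 11.93, 12.78 and 13.03 in KO. Its difference of 0.60 (SE 0.24, adjusted p = 0.0417) was past the threshold only narrowly, with overlapping groups, and leaving out 1 array ended the call in 7 of 26 cases, with a highest adjusted p of 0.111 without WT replicate 5. With slide as a fixed block it was 0.23 (adjusted p = 0.645). The probe furthest downstream went the other way, from 12.56, 14.13 and 14.51 in WT to 12.36, 13.11 and 13.62 in KO. It fell by 0.84 (SE 0.26, adjusted p = 0.00911), so the sign of the IgM difference depended on the probe. The exon of each probe was not annotated, and the reason for the split was not tested.

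**Figure D1:**
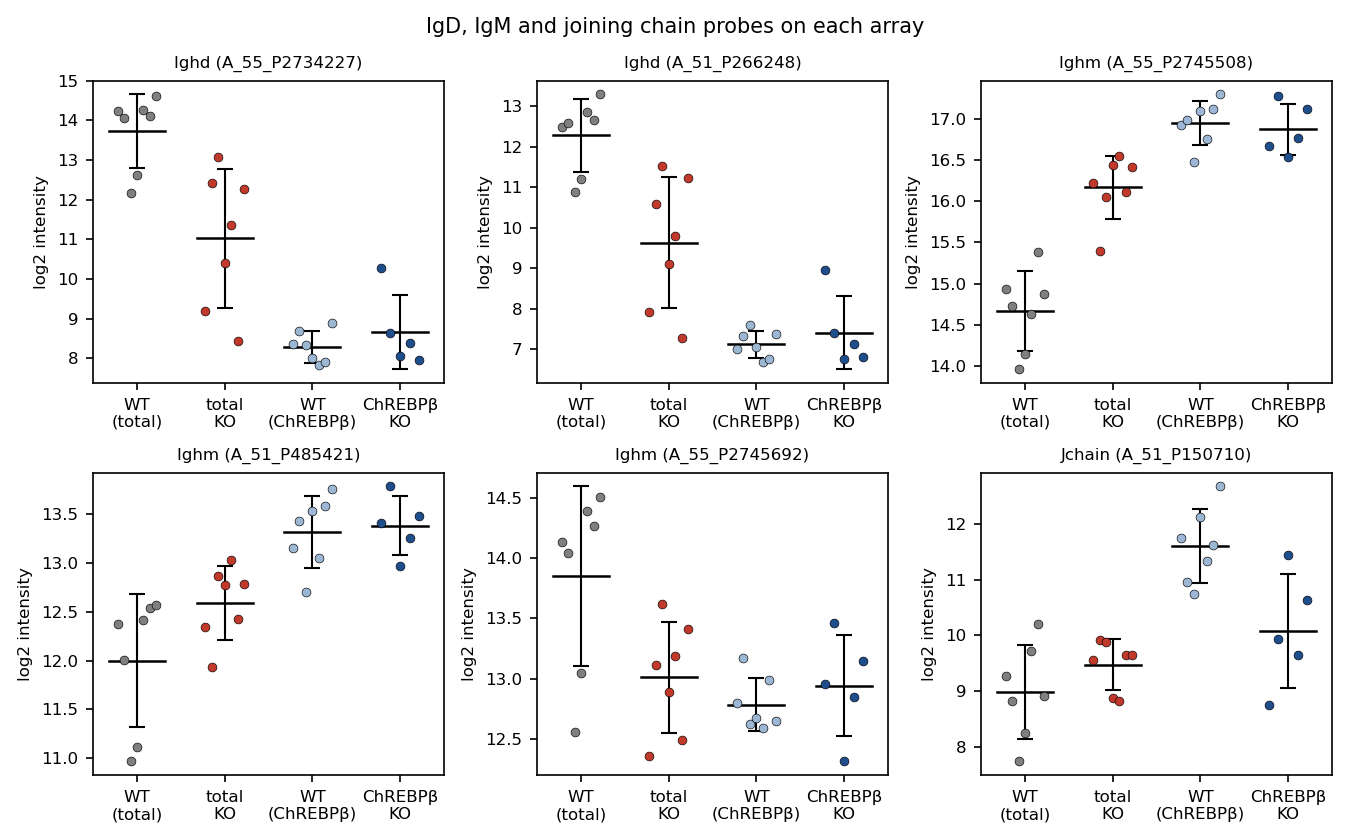
IgD, IgM and joining chain probes, 1 panel per probe; the y axis is log2 intensity, each point is 1 array, the line is the group mean and the bars are 1 SD. Ighd was highest in WT of the total line, with a median of 14.11 at A_55_P2734227, and lowest in both groups of the ChREBPβ line, while the middle Ighm probe and Jchain were highest in WT of the ChREBPβ line.

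Among the switched classes, Ighg2b and 1 of 3 Ighg2c probes fell with no overlap in the total line. Ighg2b was at 8.35, 8.96 and 9.68 in WT and at 6.49, 6.98 and 7.48 in total KO, a fall of 1.99 (SE 0.49, limma adjusted p = 0.00184). Ighg2c was at 9.30, 10.04 and 11.20 in WT and at 7.93, 8.31 and 8.84 in KO (A_55_P1956598), a fall of 1.89 (SE 0.52, adjusted p = 0.00411). In this direction 4.38% of all probes tested had groups that did not overlap. Another Ighg2c probe, A_55_P2034655, fell by 1.68 (adjusted p = 0.020), and the remaining one, A_51_P311235, differed by -1.25 (adjusted p = 0.062), both with overlapping groups. With slide as a fixed block the calls of Ighg2b (-1.88, SE 0.95, adjusted p = 0.183) and Ighg2c A_55_P1956598 (-1.32, SE 0.94, adjusted p = 0.343) were lost. The 26 arrays lay on 15 slides, so a fit with slide as a fixed block has few residual degrees of freedom. A call lost in it can reflect lower precision. IgG3 and IgA gave no call: Ighg3 differed by 0.06 (SE 0.38, adjusted p = 0.91) and Igha by 0.71 (SE 0.61, adjusted p = 0.362). Igha split the KO arrays, with replicates 2, 3 and 7 between 11.10 and 11.30 and the other 4 between 8.82 and 9.30, beside WT arrays from 8.75 to 9.81.

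All 5 light chain constant probes fell in total KO. Igkc, the only kappa constant region, was at 12.45, 14.22 and 14.59 in WT and at 10.88, 12.21 and 13.54 in KO, a fall of 1.63 (SE 0.44, adjusted p = 0.00383), with overlapping groups. Iglc3, a lambda constant region, went from 12.56, 14.14 and 14.62 to 9.41, 11.78 and 13.05 (A_51_P483576), a fall of 2.30 (SE 0.53, adjusted p = 0.000945). Iglc1 fell by 1.53 (SE 0.56, adjusted p = 0.0276), a call that was lost in 5 fits without 1 array, with a highest adjusted p of 0.0707 without total KO replicate 4. Its probe passed the filter only through the share of at least 1 group, which favours a difference. With slide as a fixed block both Igkc probes (adjusted p = 0.085 and 0.0805) and Iglc3 A_51_P483576 (-2.80, adjusted p = 0.0568) lost their calls. Jchain, in contrast, was at 7.75, 8.91 and 10.21 in WT and at 8.82, 9.65 and 9.92 in KO, and its difference of 0.48 (SE 0.38, adjusted p = 0.305) was not called.

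**Figure D2:**
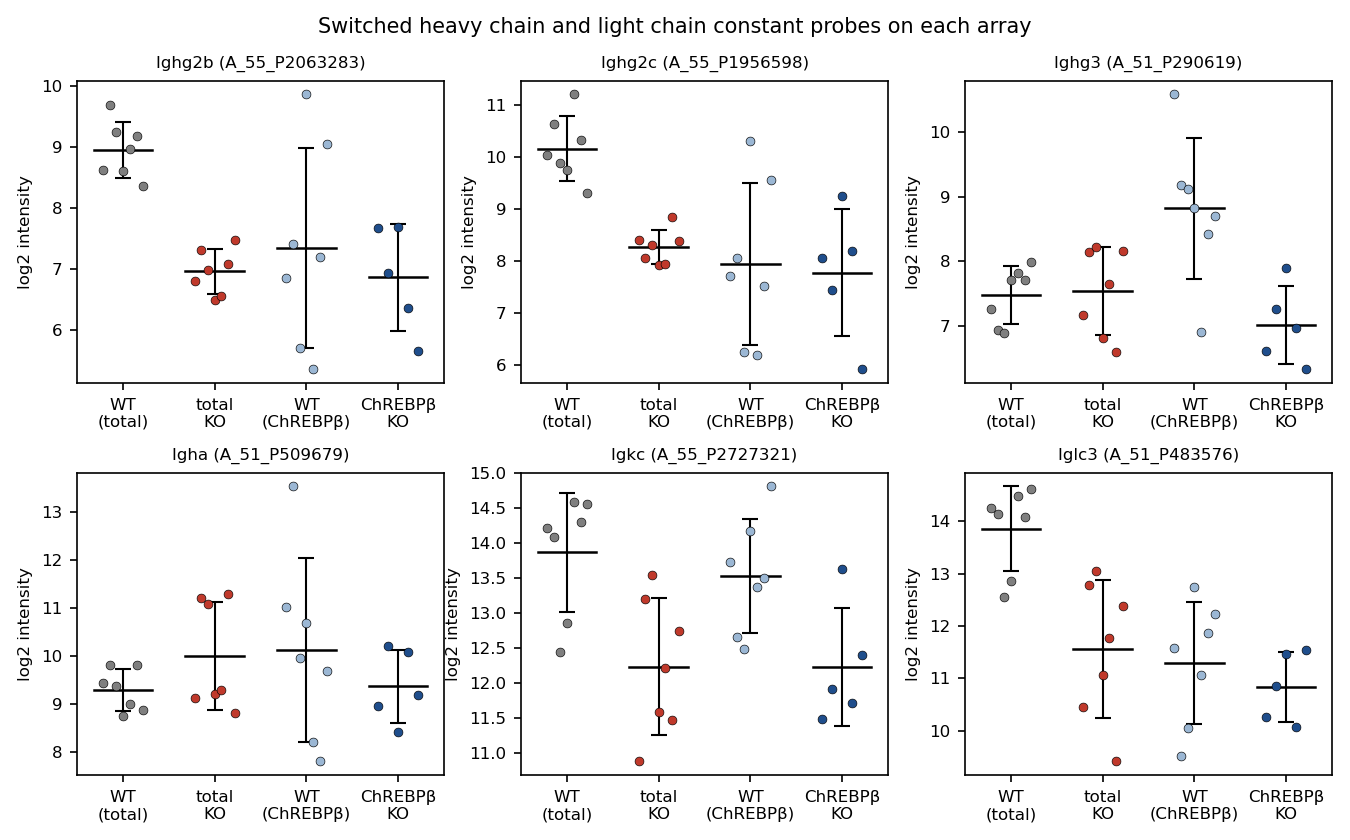
Switched heavy chain and light chain constant probes, 1 panel per probe; the y axis is log2 intensity, each point is 1 array, the line is the group mean and the bars are 1 SD. In the total line the WT and KO arrays were fully separate for Ighg2b and Ighg2c and overlapped for Ighg3, Igha, Igkc and Iglc3; the WT arrays of the ChREBPβ line spread widely, from 5.36 to 9.86 for Ighg2b.

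Variable genes of both chains fell broadly. Of the probes well above background on 21 arrays, 21 of 22 heavy variable and 39 of 45 kappa variable probes fell and none rose, with median log2 differences of -1.35 and -1.26. By gene family, all 16 of these probes for Ighv1 fell, and so did all 5 for Igkv1, all 5 for Igkv3, all 4 for Igkv6 and 18 of 19 for Igkv4. Of the Igkv8 probes 1 of 4 fell. The variable probes with the largest falls were Igkv3-10 (-2.11, SE 0.52, adjusted p = 0.00179), Ighv1-7 (-2.04, SE 0.33, adjusted p = 2.1e-05) and Igkv10-96 (-1.91, SE 0.47, adjusted p = 0.00173). Igkv10-96 passed the filter only through the share of at least 1 group, which favours a difference, and its call was lost with slide as a fixed block (adjusted p = 0.193). Igkv3-10 went from 6.24, 7.85 and 9.93 in WT to 4.28, 5.73 and 6.83 in KO, and Ighv1-7 from 7.71, 8.92 and 9.32 to 5.59, 6.62 and 7.78, with overlap in both.

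Marker genes of B cells, T cells and lymph node stroma moved with these falls. Of all probes tested, 19.3% fell and 26.3% rose in this comparison. All 12 B cell genes tested fell in total KO (median -2.31), among them Ms4a1, which encodes CD20, by 2.70. The mean over the list ran from 9.79 to 11.54 on WT arrays and from 7.29 to 10.26 on KO arrays. All 8 T cell genes fell (list mean 11.04 to 12.30 in WT and 7.89 to 11.56 in KO), as did 4 of the 5 lymph node stroma genes tested (10.51 to 11.73 and 7.42 to 10.51). The KO arrays split into 2 sets for these lists. On replicates 1, 4 and 7 the T cell mean was 7.89 to 8.57 and the lymph node stroma mean 7.42 to 7.55. On replicates 2, 3, 5 and 8 they were 10.67 to 11.56 and 9.64 to 10.51. Skeletal muscle markers also varied, with 2 of 5 genes higher in KO. Their list means ran from 5.999 to 12.37 in WT and from 5.97 to 14.94 in KO. With that list mean as a covariate, a fit chosen after seeing the data, 106 immunoglobulin probes were called. The share of all probes called in that fit is not given, so this count cannot be set against it. The 5 adipocyte markers were higher in KO (list mean 14.80 to 15.33 in WT and 15.58 to 15.80 in KO), and their part in the result was not tested. With the B cell list mean as a covariate, 5 immunoglobulin probes were called in place of 120: the first and middle Ighm probes were higher by 1.16 and 1.63, and Igkv12-47, Ighv1-62-3 and Ighv1-63 were lower. In that fit 9.48% of all probes were higher and 5.37% lower. In bulk tissue, fewer cells of a type and less RNA per cell cannot be told apart.

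**Figure D3:**
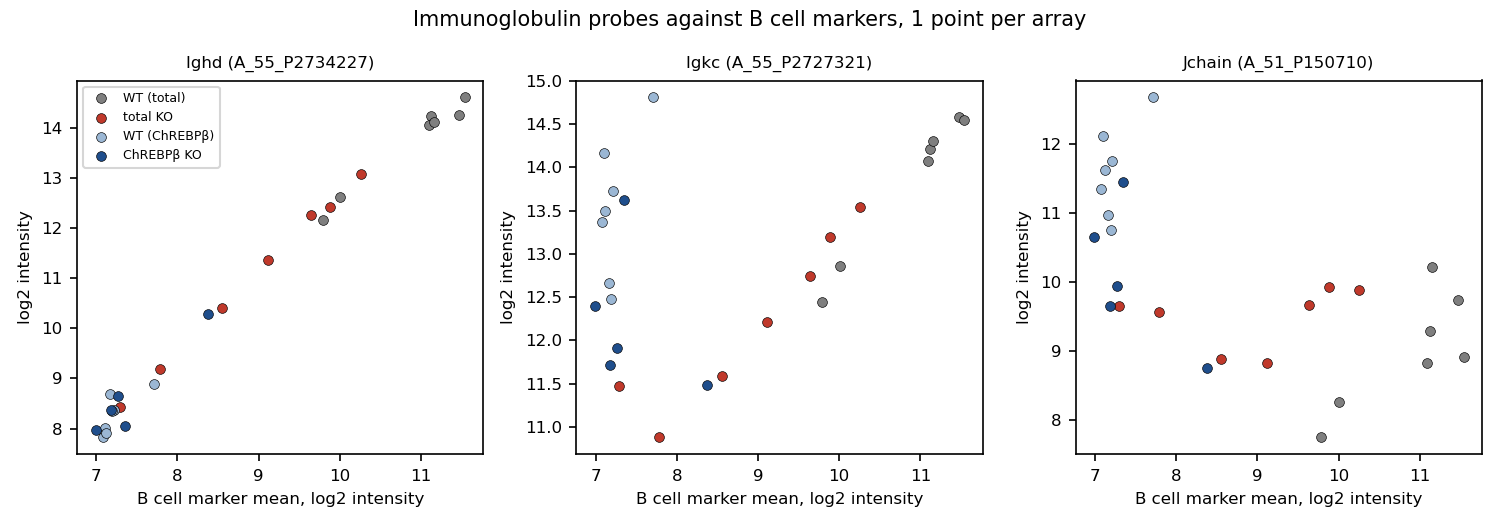
Ighd, Igkc and Jchain against the mean of 12 B cell markers, both in log2 intensity, with 1 point per array and colours for the 4 groups. Ighd and the marker mean were high and low on the same arrays; the WT arrays of the ChREBPβ line had marker means of 7.08 to 7.71 with Igkc between 12.48 and 14.81, levels that arrays of the total line had at marker means above 9.

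The WT groups, which carry neither KO allele, were compared to measure the difference between the lines. Among them, 42 of the 83 probes well above background on 21 arrays were lower in the ChREBPβ line and 6 were higher, where 19.3% and 26.5% of all such probes were. Over the 150 tested, 77 were lower and 10 higher (all probes tested: 19.4% and 25.8%). Line, breeding and handling cannot be told apart in this comparison. The WT arrays of the total line enter this comparison and the one above, so the same 7 arrays stand behind both sets of values.

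IgD and IgM moved in opposite directions between the WT groups. Ighd was at 7.83, 8.34 and 8.89 in WT of the ChREBPβ line, all below the lowest array of the total line, and was lower by a log2 difference of -5.43 (SE 0.57, limma adjusted p = 5.97e-08), or 43.2-fold. The middle Ighm probe was at 16.48, 16.98 and 17.30, all above every WT array of the total line, and was higher by 2.29 (SE 0.19, adjusted p = 4.86e-09), or 4.87-fold. The first Ighm probe, at 12.70, 13.42 and 13.75, was also higher with no overlap, by 1.32 (SE 0.24, adjusted p = 6.1e-05). The downstream Ighm probe, at 12.59, 12.68 and 13.17, was lower by a difference of -1.06 (SE 0.26, adjusted p = 0.00135). The split among the IgM probes had the same signs as between total KO and its WT. Both comparisons are made against the same WT arrays of the total line, so this match is not independent. Over all 150 probes, the WT groups did not overlap for 5 higher and 16 lower probes, where 9.9% and 6.21% of all probes tested were so separated. Among the 83 probes well above background on 21 arrays, these were 4 higher and 8 lower. The others entered through the share of a bright group, which favours separation.

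Other probes that were higher in WT of the ChREBPβ line belonged to the joining chain, IgG3 and a few variable genes. Jchain was at 10.75, 11.62 and 12.67 there, above every WT array of the total line, and differed by 2.61 (SE 0.38, adjusted p = 3.91e-06), or 6.09-fold. Ighg3 was at 6.90, 8.83 and 10.59 against 6.89, 7.71 and 7.995 (A_51_P290619) and differed by 1.35 (SE 0.38, adjusted p = 0.00534), with overlap through ChREBPβ WT replicate 6. Its other probe, printed above, differed by 1.60 (SE 0.59, adjusted p = 0.0277), a call that 4 of the fits without 1 array lost, with a highest adjusted p of 0.0779 without ChREBPβ WT replicate 1. Ighg2b and Ighg2c were lower instead, by differences of -1.61 (adjusted p = 0.00961) and -2.21 (adjusted p = 0.00105), although ChREBPβ WT replicates 4 and 8 reached the levels of the WT arrays of the total line. Replicate 4 was above the highest of them for Ighg2b, at 9.86. With slide as a fixed block both calls were lost (adjusted p = 0.109 and 0.0791). Igha differed by 0.83 (SE 0.61, adjusted p = 0.287) and reached 13.54 on ChREBPβ WT replicate 2.

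The light chain constant regions differed in their calls. Igkc, at 12.48, 13.50 and 14.81 in WT of the ChREBPβ line, differed by -0.33 (SE 0.44, adjusted p = 0.57), while Iglc3, at 9.51, 11.57 and 12.75, was lower by a difference of -2.56 (SE 0.53, adjusted p = 0.000306). Of the probes well above background on 21 arrays, 21 of 22 heavy variable probes were lower, and 14 of 45 kappa variable probes were lower and 1 higher. The families of kappa genes differed in their medians. Over the same set, median log2 differences between the WT groups were -1.71 for the 5 Igkv3 probes, of which all were lower, -0.76 for the 19 Igkv4 probes, of which 3 were lower, 0.00565 for the 5 Igkv1 probes and -0.02 for the 2 Igkv2 probes, of which none was called. All 16 Ighv1 probes were lower, with a median of -1.50.

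Igkv14-126 and Ighv11-2 stood at the other end. Together they encode a receptor known from B-1 cells, which make natural IgM, and the array's description of A_66_P122898 names an IgM autoantibody. Igkv14-126 was at 4.69, 5.97 and 6.24 in WT of the total line and at 7.69, 9.40 and 11.74 in WT of the ChREBPβ line. Every array of the latter was above every array of the former, with a log2 difference of 3.76 (SE 0.63, adjusted p = 2.99e-05), or 13.5-fold. Its overlapping probe differed by 3.42 (SE 0.62, adjusted p = 7.89e-05). That probe passed the filter only through the share of at least 1 group, which favours a difference, so it adds no separate evidence. Ighv11-2 was not well above background on any WT array of the total line and was so on 6 of 7 in the ChREBPβ line, at 4.56, 5.95 and 7.67. It was at least 2.54-fold higher there (adjusted p = 0.00133), a bound set against the dimmest signals that were well above background on the arrays of the total line. This probe passed the filter through the ChREBPβ WT group alone, so that it entered only because it was bright there. Replicates 4, 7 and 8 of the ChREBPβ WT group had the highest values of both genes. Ighv6-3, the only other variable gene with a higher probe (0.85, SE 0.33, adjusted p = 0.0404), also passed only through the share of at least 1 group. Iglon5 was also higher, by 0.90 (SE 0.19, adjusted p = 3.00e-04).

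**Figure D4:**
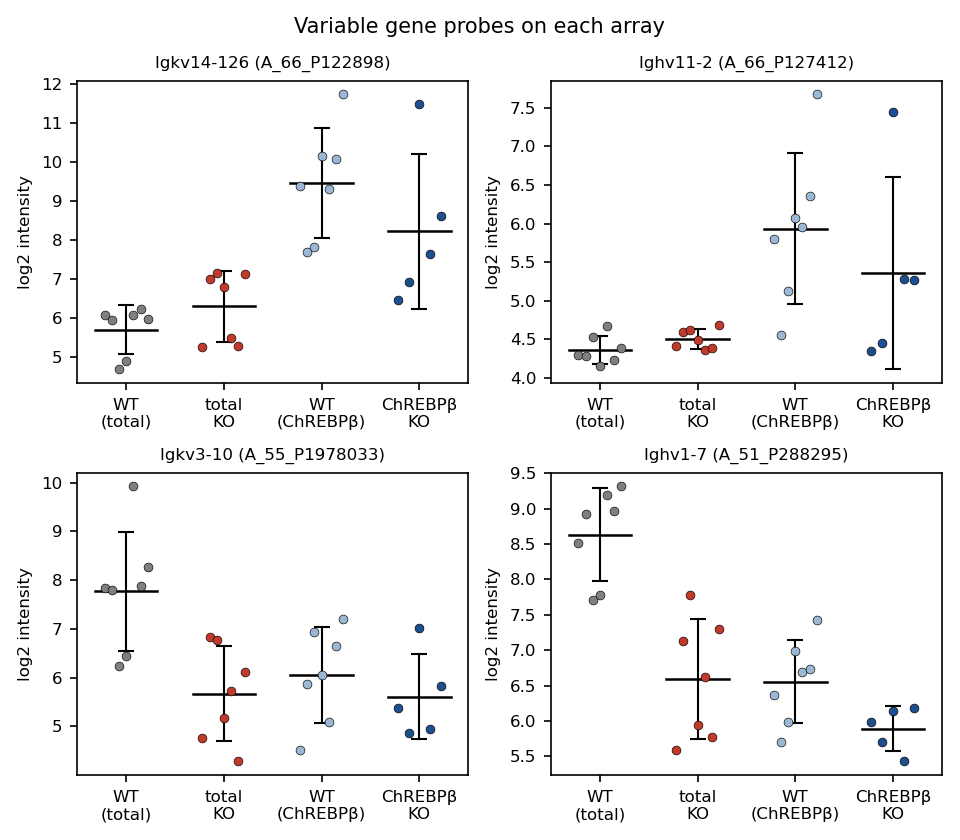
Variable gene probes, 1 panel per probe; the y axis is log2 intensity, each point is 1 array, the line is the group mean and the bars are 1 SD. Igkv14-126 and Ighv11-2 were highest in the ChREBPβ line, with medians of 9.40 and 5.95 in its WT group and 5.97 and 4.30 in WT of the total line, while Igkv3-10 and Ighv1-7 were highest in WT of the total line.

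All 12 B cell markers were lower in WT of the ChREBPβ line (median -4.16, list mean 7.08 to 7.71), as were all 8 T cell markers (7.67 to 9.37) and 3 of 5 lymph node stroma markers (7.60 to 8.24). Macrophage markers were higher for 4 of 6 genes (11.05 to 12.45 in WT of the total line and 12.22 to 13.08 here). Of all probes tested, 19.4% were lower and 25.8% higher in this comparison. With the B cell list mean as a covariate, 9 immunoglobulin probes were called and all 9 were higher in the ChREBPβ line, where 1.57% of all probes were higher and 1.82% lower. They were Jchain, both Ighg3 probes, the first and middle Ighm probes, both Igkc probes and both Igkv14-126 probes, with log2 differences from 2.37 (first Ighm probe) to 5.89 (Igkv14-126). The B cell list means of the WT groups did not overlap, with 9.79 to 11.54 in the total line. The adjusted differences therefore rest on a slope extended over a range that the WT groups do not share. They cannot show how the groups would differ at equal B cell marker levels.

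Loss of ChREBPβ alone gave no called immunoglobulin probe in limma, at a background of 0.0361% of all probes called in either direction (0.00515% higher and 0.0309% lower). At an unadjusted p under 0.05, 46 of the 150 probes were lower and 0 higher in ChREBPβ KO, where 3.22% of all probes tested were lower and 4.69% higher, and the smallest adjusted p was 0.16. The log2 difference was below 0 for 139 of 150 probes, where 47.6% of all probes were below 0, and the median was -0.48 (0.01 over all probes). The 150 include the 67 probes that entered through the share of a bright group, which favours a difference. Among the 83 probes well above background on 21 arrays, 28 were lower at an unadjusted p under 0.05. Of these 83, 76 were below 0, with a median of -0.51. Probes that share a transcript, or cross-hybridise, count repeatedly in these figures.

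Ighg3, Jchain, Igkc and the Igkv1 family were among the probes with the larger values of this comparison. Ighg3 was at 6.60, 7.26, 7.89, 6.97 and 6.32 in the 5 ChREBPβ KO arrays, in the order of replicates 1, 2, 4, 5 and 6, and differed by -1.81 from its WT (SE 0.42, limma adjusted p = 0.16). Jchain was at 8.75, 9.93, 11.45, 9.64 and 10.64, a difference of -1.52 (SE 0.41, adjusted p = 0.272). Igkc was at 11.48, 11.92, 13.62, 11.72 and 12.40, a difference of -1.30 (SE 0.48, adjusted p = 0.474). Replicate 4 was the highest KO array for each of these genes, and without it Ighg3 (-2.03, adjusted p = 0.0464) and Jchain (-1.86, adjusted p = 0.0467) passed the threshold. Ighg3 also passed it without ChREBPβ WT replicate 6 (-2.13, adjusted p = 0.0253). The Igkv1 probes had a median difference of -1.45, from -1.79 to -0.44, and no call. The KO and WT ranges of Ighg3, Jchain and Igkc overlapped. Over the 150 probes the groups were separate for 3 lower and 0 higher probes, where 0.26% and 0.142% of all probes were. Of the 3, 2 were well above background on 21 arrays. The 3 were Ighv1-53, Ighv1-55 and Ighv1-56, with differences from -0.72 to -0.50.

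IgD and IgM gave small differences in the ChREBPβ line. Ighd was at 10.28, 8.65, 8.05, 8.37 and 7.96, with replicate 1 above the others and above every WT array of its line, and differed by 0.37 (SE 0.62, adjusted p = 0.959). The middle Ighm probe was at 16.67, 17.27, 16.54, 16.76 and 17.12 and differed by -0.08 (SE 0.21, adjusted p = 0.981). Igkv14-126 was at 6.47, 6.92, 11.48, 7.64 and 8.61, and Ighv11-2 at 4.35, 4.45, 7.45, 5.28 and 5.28. For both variable genes replicate 4 stood highest, and neither was called (-1.23, adjusted p = 0.713, and -0.57, adjusted p = 0.811). None of the 12 B cell, 12 plasma cell or 8 T cell markers was called either, with B cell list means of 6.99 to 8.38 in KO.

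**Figure D5:**
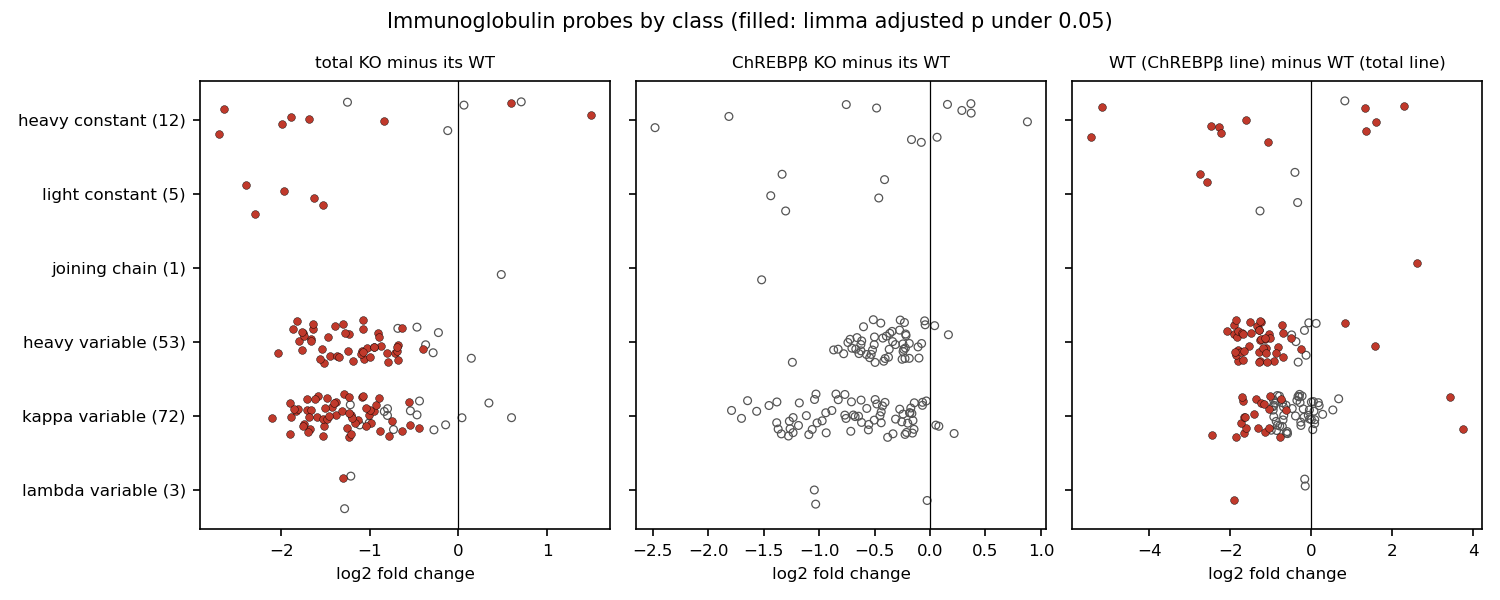
Log2 differences of the tested immunoglobulin probes by class, 1 point per probe, for the total line, the ChREBPβ line and the WT groups; filled points had a limma adjusted p under 0.05 and the number tested stands beside each class, and other heavy chain transcripts and Iglon5 are not drawn. Filled points of the variable classes lay left of 0 in the total line, no point was filled in the ChREBPβ line, and between the WT groups the kappa variable probes spread from -2.44 to 3.76.

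The KO effects were then compared directly, as the effect in the ChREBPβ line minus that in the total line. Of the 83 probes well above background on 21 arrays, 11 were higher and 3 lower, where 9.6% and 13.6% of all such probes were. Over the 150, the numbers were 24 and 3, at 9.84% and 12.6% of all probes. The share of higher calls among the 83 was thus near that of all probes. The difference was 3.07 for Ighd (SE 0.84, adjusted p = 0.0106), -1.58 for the middle Ighm probe (SE 0.28, adjusted p = 0.00033), -2.002 for Jchain (SE 0.56, adjusted p = 0.0117) and -1.88 for Ighg3 (SE 0.57, adjusted p = 0.0191). It was not called for Igkc (0.33, SE 0.65, adjusted p = 0.766), with differences of -1.63 and -1.30 in the lines, and an SE of this size does not show them to be alike. Igkv17-121 (1.96, SE 0.54, adjusted p = 0.0111), Igkv3-12 (1.44, adjusted p = 0.0232) and Ighv1-7 (1.37, SE 0.49, adjusted p = 0.0444) had the largest positive values among called variable probes. With slide as a fixed block the calls named here were lost except that of Ighg3, with an adjusted p of 0.0757 for Ighd, 0.111 for the middle Ighm probe, 0.206 for Jchain, 0.0589 for Igkv17-121, 0.102 for Igkv3-12 and 0.133 for Ighv1-7. The call of Ighv1-7 was lost in 16 fits without 1 array, and that of Igkv3-12 without ChREBPβ KO replicate 4 (adjusted p = 0.0524).

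Genes that act beside the antibody chains were read from lists of markers. Of 12 plasma cell genes, 2 rose and 5 fell in total KO, where 26.3% of all probes tested rose and 19.3% fell: Xbp1, the transcription factor of the secretory programme, rose by 0.36 (adjusted p = 0.0103) and Tnfrsf17, the receptor BCMA of plasma cells, by 0.49 (adjusted p = 0.0144), while Mzb1, a chaperone of IgM assembly, fell by 2.001 and Tnfrsf13b, the receptor TACI, by 2.13. Adipocytes and other cells also express Xbp1. Between the WT groups 5 of the 12 were higher in the ChREBPβ line, where 25.8% of all probes tested were, with Tnfrsf17 at 1.62, Xbp1 at 0.76 and Prdm1, which represses the B cell programme, at 0.39, and 3 were lower, with Mzb1 at -2.61. The Tnfrsf17 probe was at 5.15, 5.79 and 6.17 in WT of the total line and at 7.09, 7.43 and 7.55 in WT of the ChREBPβ line, with no overlap. Many of these genes are also expressed outside plasma cells, and B cells express Mzb1 and Tnfrsf13b.

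Of 10 genes of class switching and the germinal centre, 5 fell in total KO and none rose, beside the same shares of all probes. Cd40, which receives help from T cells, fell by 1.57 (adjusted p = 0.000155). Of the receptor assembly genes, Rag1 and Rag2 did not pass the filter, and of the 6 tested 3 fell in total KO and 1 rose, with Vpreb3 at -2.38 and Il7r, which T cells also express, at -2.60. Of 7 Fc and antibody transport receptors tested, Fcgrt, which protects IgG from degradation, rose by 0.95 (adjusted p = 2.96e-11) with no overlap, and Fcgr2b, an inhibitory receptor for IgG, fell by 0.69.

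The direction of the main values was also read within each of the 4 wash batches the labels name. Some groups had only 1 array in a batch. Ighd was lower in total KO in 4 of 4 batches (-4.47 to -1.03), and so was Igkc (-2.58 to -0.24), while the middle Ighm probe was higher in 4 of 4 (0.57 to 2.18). The other Ighm probes changed sign between batches. The downstream probe was lower in 3 of 4 (-1.55 to 0.44) and the first probe in 1 of 4 (-0.26 to 1.63). Between the WT groups, Ighd (-6.001 to -4.16), the middle Ighm probe (1.86 to 3.14), Jchain (1.80 to 4.37) and Igkv14-126 (1.74 to 5.47) kept their signs in all 4. Not all called probes did. The downstream Ighm probe, Ighg2b, Ighg2c and Iglc3 were lower in 3 of 4 batches, with highest differences of 0.12, 0.61, 0.43 and 0.19. The ChREBPβ line could be compared in 3 batches, with Jchain at -2.77 to -0.58 and Ighg3 at -1.90 to -1.32.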

How the data were processed

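RNA of 26 single mice was hybridised with 1 dye (Cy3) to 1 array each. The deposited scanner files hold the intensity of each spot, read by the authors with Agilent Feature Extraction 10.10.1.1 and not normalized. The deposited table holds log2 intensity after the authors' filter and quantile normalization, and served as an alternative.

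From the median pixel intensity, spots were kept where Feature Extraction called them found, positive, significant and clear of background on 21 of 26 arrays (the authors' rule of 26 of 32, scaled) or on 75% of the arrays of at least 1 group. In all, 97 outlier values of single probes were set to missing, none of them of an immunoglobulin probe. Values were log2 transformed, quantile normalized, and replicate spots of a probe replaced by their median, which left 38832 probes. A linear model with a mean per group was fitted to all 26 arrays (limma 3.58.1 in R 4.3.3, lmFit and eBayes, 22 residual degrees of freedom), with Benjamini-Hochberg adjustment over all 38832 probes and a threshold of 0.05. The WT groups, the KO against WT of each line and the difference of those effects were compared. The methods named no test for the arrays. The fit recovered known changes when tested on simulated data.

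The members and lists were chosen with earlier results of these data known. Named were the brightest probe of each constant region, the joining chain and probes that are no chain, and of the others the 3 largest called rises and falls in each comparison. Second probes of Ighm, Ighd, Ighg2c, Ighg3, Igkc and Iglc3, the gene families, Ighv1-53, Ighv1-55, Ighv1-56, Ighv6-3, Igkv19-93, Igkv12-47, Ighv1-62-3 and Ighv1-63 were chosen after their values were seen. Of 214 member names, 208 were found in RefSeq's gene table (GRCm38.p6), used for names only. Probe positions are mm9, per the files.

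The number of arrays limits the precision. Median intensities ran from 59 to 107.5 per array beside backgrounds of 15 to 23. Replicate numbers did not pair the arrays: correlations of same-numbered arrays' deviations ran from -0.36 to 0.51 over 6 pairs in the total line and from -0.33 to 0.14 over 4 pairs in the ChREBPβ line. Alternatives in background correction, scaling, filter, slide, wash batch, marker covariates, replicate block and left-out arrays were computed.

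Single values of some marker genes are not reported here.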

Additional observations from a re-analysis of the deposited data

Results flagged for a closer look

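In groups of 5 or 7 arrays, 2 single arrays lay far from the rest of their group among 100 group and probe combinations examined, where chance marks about 1 in 20. The middle Ighm probe was at 15.40 on total ChREBP KO replicate 2, with the other KO arrays between 16.06 and 16.55. The Ighd probe A_51_P266248 was at 8.94 on ChREBPβ KO replicate 1, with the others between 6.75 and 7.39, and the B cell list mean was also highest on that array of its line.

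The KO effect differed between the lines for 9 of 25 probes examined (interaction term, limma, adjusted over all probes). Of all probes tested, 9.84% were called higher and 12.6% lower in this term. Some of the 25 were named because their difference in this or another comparison was large, or after their values were seen. The count of 9 therefore cannot be set against those shares. The difference, ChREBPβ line minus total line, was -1.58 for the middle Ighm probe, from effects of 1.50 (total) and -0.08 (ChREBPβ). It was 3.07 and 2.93 for the Ighd probes, with effects of -2.70 and -2.64 in the total line and 0.37 and 0.29 in the ChREBPβ line. Ighg3 had -1.88, from 0.06 and -1.81, and Jchain had -2.002, from 0.48 and -1.52. In the variable genes it was 1.96 for Igkv17-121 (-1.74 and 0.22), 1.44 for Igkv3-12 (-1.39 and 0.05), 1.37 for Ighv1-7 (-2.04 and -0.67) and 1.33 for Ighv1-2 (-1.76 and -0.43).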

How the results depend on the processing

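Counts of called immunoglobulin probes were 120 (total line), 0 (ChREBPβ line), 27 (difference of effects) and 87 (WT groups). In the total line they became 62 with slide as a fixed block, 5 with the B cell list mean as a covariate, 4 with that of lymph node stroma and 72 over probes well above background on 21 arrays. In the ChREBPβ line they became 1 with array weights (Ighg3, -2.04, adjusted p = 0.0362) and 1 with the B cell mean (Igkv19-93, -1.39, adjusted p = 0.0208). For the difference of effects they became 43 (75th percentile of median intensity), 14 (75th percentile of processed signal), 2 (slide), 44 (array weights), 5 (B cells), 4 (lymph node stroma), 17 (skeletal muscle) and 15 (21 arrays), and between WT groups 9 (B cells), 13 (lymph node stroma) and 48 (21 arrays). Without 1 array they ranged from 109 to 127, 0 to 2, 18 to 41 and 82 to 102. The 41 came without total WT replicate 4 and the 2 without ChREBPβ KO replicate 4. Fits on lymph node stroma, on skeletal muscle and on 21-array probes were chosen after seeing the data. With the B cell mean, 14.8% of all probes were called in the total line and 0.0489% in the ChREBPβ line. These shares were 5.68% for the difference of effects and 3.39% between WT groups. Shares of all probes are not given here for the slide, array weight, scaling, lymph node stroma and skeletal muscle fits. In those, a general loss or gain of calls cannot be told from one particular to immunoglobulin probes. The deposited table gave 142, 0, 33 and 103. Slide as a random block gave 121 (total line), 0 (ChREBPβ line) and 28 (difference of effects). The consensus correlation of arrays on 1 slide was 0.0508.

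With slide as a fixed block, calls of named probes were lost in the total line for Ighg2b, Ighg2c, Igkc, Iglc3, Igkv10-96 and the first Ighm probe, between the WT groups for Ighg2b and Ighg2c, and for the difference of effects for all named probes called before except Ighg3 A_51_P290619 (Ighd 5.26 and 5.09, Ighv1-2 adjusted p = 0.147). The other Ighg3 probe gained a call (adjusted p = 0.042), as did Igha in the total line (2.51, adjusted p = 0.0495).

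The replicate block, which rests on numbers that do not pair the arrays, gave 120, 0, 36 and 86 calls. Under it Ighg3 lost its call in the difference of effects (-1.69, adjusted p = 0.0534).

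Signs turned mostly with the B cell covariate. In the total line these were Ighd (0.26 and 0.0737), Iglon5 (-0.35), the downstream Ighm probe (0.13) and Ighg3 A_55_P2118876 (1.34, and 1.32 with slide as a block). For the difference of effects they were Ighd (-0.20 and -0.0757), Igkc (-1.43 and -1.53), Iglc1 (-1.19), Iglc3 (-0.33), Iglon5 (0.14), Igkv3-10 (-0.42), Ighv1-7 (-0.19), Igkv10-96 (-1.32), Ighv1-2 (-0.19) and the downstream Ighm probe (-0.0731), and with slide the first Ighm probe (0.0152). Between WT groups they were Ighd A_55_P2734227 (0.12), Igkc (2.64 and 3.09), Iglc1 (1.09), Iglc3 (1.12), Iglon5 (-0.0131), Igkv3-10 (1.81), Ighv1-7 (0.57), Igkv10-96 (2.48), Igkv17-121 (0.36), Igkv3-12 (0.65), Ighv1-2 (0.66) and the downstream Ighm probe (0.75). The covariate is itself measured on these arrays and differs between the groups; the cause was not tested.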
